A study of Homo sapiens with 20 samples.

Results

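Nucleolar ribosome biogenesis genes were followed through 2 RNA-seq experiments in LNCaP, an androgen-responsive human prostate cancer cell line. The members were 52 named genes, all of them found by symbol among the 57773 genes of both count tables. By role, 7 belong to RNA polymerase I (Pol I) transcription, 9 are proteins of the small nucleolar ribonucleoproteins (snoRNPs), 15 act in processing of the small ribosomal subunit, 15 in that of the large subunit, and 6 are other nucleolar proteins. In the siRNA experiment, LNCaP cells were transfected for 2 days with 20 nM of siNTC, a control siRNA, or siEHMT1, which targets the histone H3K9 methyltransferase EHMT1, with 2 samples each. In the other experiment, 4 stable LNCaP-tet-EHMT1 lines expressed an extra EHMT1 copy under doxycycline control, which was EHMT1-WT or had the lysine-to-arginine changes K450R, K451R or both (K450RK451R). Each line was left without inducer (Veh, labelled untreated) or received 0.25 µg/mL doxycycline (Dox) for 2 days, in 2 numbered samples per condition. The lines were made by lentiviral infection and puromycin selection, with a V5-tagged insert, and all groups still had their own EHMT1 gene. Whether they were pools or clones is not given in the sources used here. No line without an EHMT1 insert was analysed here, so doxycycline itself and induced EHMT1 cannot be told apart.

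Ribosomes are built in the nucleolus. Pol I transcribes the ribosomal DNA into a long precursor RNA, snoRNPs and stand-alone enzymes modify it, and the small and large subunit processomes fold and cut it while ribosomal proteins assemble on it. Many genes of this programme are classical targets of MYC, a transcription factor that binds, with its partner MAX, the E-box sequence CACGTG, and both rRNA synthesis and large nucleoli are long-known features of prostate cancer cells.

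The promoters of some members named in the results are shown as examples that either hold this E-box or lack it. They run from 100 bases before to 30 bases after the RefSeq start site in GRCh38.p14, 5′ to 3′ along the gene, with CACGTG in capitals.
UTP20 (chr12:101280005-101280134, plus strand): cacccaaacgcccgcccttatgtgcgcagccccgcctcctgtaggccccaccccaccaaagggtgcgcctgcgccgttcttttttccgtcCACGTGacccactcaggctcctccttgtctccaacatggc
NAT10 (chr11:34105529-34105658, plus strand): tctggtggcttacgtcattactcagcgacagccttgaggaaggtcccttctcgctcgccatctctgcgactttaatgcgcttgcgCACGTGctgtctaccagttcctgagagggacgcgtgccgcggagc
WDR43 (chr2:28894567-28894696, plus strand): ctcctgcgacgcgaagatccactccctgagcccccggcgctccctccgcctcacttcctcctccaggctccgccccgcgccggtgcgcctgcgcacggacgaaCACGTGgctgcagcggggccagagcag
FBL (chr19:39846350-39846479, minus strand): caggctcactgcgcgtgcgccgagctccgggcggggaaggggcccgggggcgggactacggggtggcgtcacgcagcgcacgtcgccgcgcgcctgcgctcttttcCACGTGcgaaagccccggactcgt
NOP56 (chr20:2652532-2652661, plus strand): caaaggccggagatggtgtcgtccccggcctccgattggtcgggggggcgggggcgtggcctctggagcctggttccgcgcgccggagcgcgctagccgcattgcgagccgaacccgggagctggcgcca
POLR1A (chr2:86105857-86105986, minus strand): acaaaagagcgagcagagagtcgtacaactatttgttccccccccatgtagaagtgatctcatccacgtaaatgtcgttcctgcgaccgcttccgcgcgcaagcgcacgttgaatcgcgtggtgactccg
UTP20 and NAT10 had the E-box just before the start site, and WDR43 and FBL just after it, whereas NOP56 and POLR1A had none in these windows. RefSeq windows of 300 bases, from 250 before to 50 after each start site, were found for 44 of the 52 members. CACGTG, which reads the same on both strands, was in the windows of 22 of these 44 members (50%), compared with 8.77% of the 27305 genes with a window and 12.9% of those tested in the siRNA experiment. Among other ribosome biogenesis factors, a list described below, 24 of 87 with a window had it (27.6%). None of the 5 Pol I genes with a window had it, compared with 4 of 7 snoRNP genes, 7 of 14 small subunit genes, 7 of 12 large subunit genes and 4 of 6 other nucleolar genes. A match is a description of the letters only. The members had been chosen as classical MYC-driven nucleolar genes, so their share with CACGTG is not an independent result.

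Total counts were 5593400 to 12438006 per siRNA sample. In the stable lines the 2 columns of each condition differed by no more than counting noise (chi-square per degree of freedom 0.995 to 1.02), so they were added up and counted as 1 sample, with 8436791 to 12407739 counts per condition. The siRNA samples of a group stood further apart, at 61.6 (siNTC) and 13.4 (siEHMT1). Leaving out 2 pseudogenes brought these to 6.58 and 6.17. One of these pseudogenes took 8.39% of the counts of siNTC replicate 2. In the libraries, the 9 luminal prostate markers summed to 5983 to 12868 CPM (counts relative to the TMM-scaled library total), while leukocyte markers stayed between 0 and 0.609, basal markers between 0.225 and 1.52, neuroendocrine markers between 0.203 and 2.00 and fibroblast markers between 15.3 and 40.8 CPM, with 3 of the 4 fibroblast genes under 1 CPM in every sample. These are bulk samples, in which fewer cells of a type and less RNA per cell cannot be told apart.

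EHMT1 itself was measured at 87.8 and 83.6 CPM in siNTC and 29.2 and 30.7 CPM in siEHMT1. It fell by 1.51 on the log2 scale (SE 0.11, n = 2 samples per group, edgeR adjusted p = 1.48e-07). In the stable lines EHMT1 went from 71.7 to 88.9 CPM with Veh to 662 to 842 CPM with Dox, a log2 fold change of 3.23 (SE 0.069, 4 lines, edgeR adjusted p = 1.02e-23). MYC was measured at 401 and 374 CPM in siNTC and at 326 and 314 CPM in siEHMT1, with a log2 fold change of -0.28 (SE 0.087) that did not pass the test (edgeR adjusted p = 0.270). With Dox, MYC went from 106 to 134 CPM in EHMT1-WT and from 114 to 144 in K450R. It went from 135 to 207 in K451R and from 142 to 209 in K450RK451R. This rise was shared by the 4 lines (log2 fold change 0.46, SE 0.062, edgeR adjusted p = 3.61e-05). The mutant lines differed from EHMT1-WT in it by 0.17 (SE 0.14), which did not pass the test (edgeR adjusted p = 0.853).

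Levels of the members differed widely. Per kilobase of canonical transcript, mean siNTC levels ran from 248 CPM per kb for NOP10 and 183 for NPM1, a histone chaperone of the granular nucleolus, to 3.48 for NOC3L and 2.19 for GAR1. Among the snoRNP proteins, the box C/D core proteins FBL (the methyltransferase) and NOP56 had 70.1 and 98.3 CPM per kb, compared with 27.9 for NOP58. The box H/ACA core proteins NOP10, NHP2, DKC1 (the pseudouridine synthase) and GAR1 had 248, 99.8, 35.1 and 2.19. The Pol I genes lay between 8.55 for POLR1A, which encodes the largest catalytic subunit, and 32.9 CPM per kb for POLR1E. All 52 members passed the filter on low counts in every tested comparison. GAR1 was the least covered, with counts of 1 to 22 in the stable lines.

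After EHMT1 silencing, 39 of the 52 members had a log2 fold change below 0 (75%, compared with 50.4% of all 14532 genes tested), with a median of -0.073 for the members and -0.0021 for all genes. No member passed an adjusted p of 0.05 in either direction in edgeR, where 0.0619% of all genes were called higher and 0.0688% lower, nor in DESeq2 or limma-voom. At an unadjusted p under 0.05, 8 members were lower (15.4% of them, all genes 5.09%) and 0 were higher (all genes, 4.46%). DESeq2 gave 6 and limma-voom 9 such members. Both siEHMT1 samples lay below both siNTC samples for 19 members (36.5%, all genes 19.8%) and above them for 4 (7.69%, all genes 19.9%). For samples of the same number, the median over members was -0.082 (replicate 1) and -0.058 (replicate 2).

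**Figure D1:**
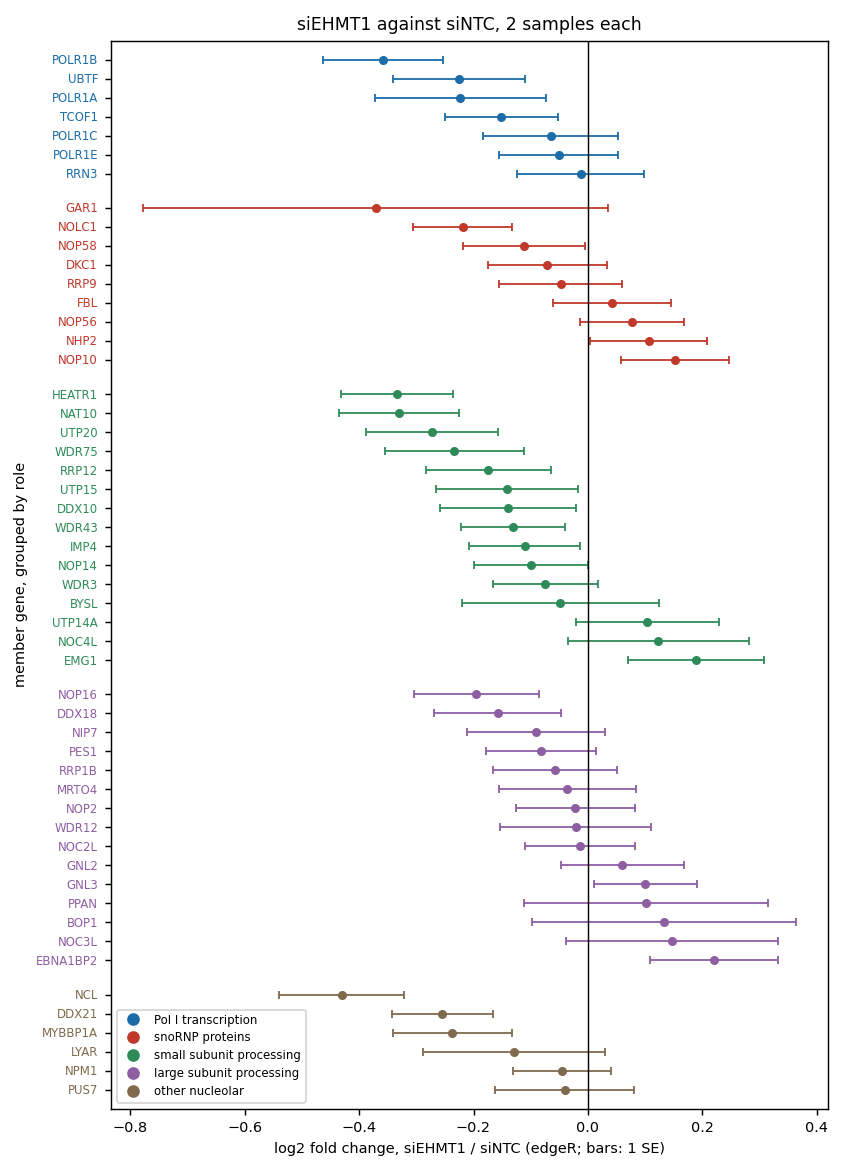
The log2 fold change of siEHMT1 over siNTC is plotted for each of the 52 members, grouped and coloured by role, with bars of 1 standard error (2 samples per group). All 7 Pol I genes and all 6 other nucleolar genes lie left of 0, while 4 of 9 snoRNP genes and 6 of 15 large subunit genes lie right of it.

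Within the Pol I group all 7 genes were lower in value, with a median of -0.15, and 1 had an unadjusted p under 0.05. POLR1B, a core subunit of the enzyme, had 66.9 and 63.2 CPM in siNTC and 51.6 and 49.98 CPM in siEHMT1. The groups did not overlap, and the log2 fold change was -0.36 (SE 0.10, edgeR adjusted p = 0.221). POLR1A had 113.7 and 99.6 CPM in siNTC and 69.3 and 113.5 CPM in siEHMT1, so that only one siEHMT1 sample was low. With all 4 samples its log2 fold change was -0.22 (edgeR adjusted p = 0.665). Without siEHMT1 replicate 2 it was -0.62 (adjusted p = 0.00092), in a fit that leaves 1 siEHMT1 sample and assumes that it varies like the siNTC samples. UBTF, which binds and opens the ribosomal DNA, had a log2 fold change of -0.23 (SE 0.12), and RRN3, which brings Pol I to the promoter, one of -0.013 (SE 0.11).

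The other nucleolar proteins had a median of -0.18, with all 6 lower in value. NCL encodes nucleolin, an abundant RNA-binding protein of the nucleolus. Its level was 255 and 208 CPM in siNTC and 190 and 154 CPM in siEHMT1. The groups did not overlap, the log2 fold change of -0.43 (SE 0.11) had an edgeR adjusted p of 0.150. With the replicate number as a block the adjusted p of NCL was 0.00235, and without siNTC replicate 2 and without siEHMT1 replicate 1 it was 0.000744 and 0.0321. Whether the numbers pair these samples is not known. A fit without a sample leaves 1 in that group, which is assumed to vary like the other group. Without siNTC replicate 1 and without siEHMT1 replicate 2 the adjusted p was 0.370 and 0.342. DDX21, an RNA helicase, had 360 and 355 CPM in siNTC and 315 and 284 CPM in siEHMT1 (log2 fold change -0.25, SE 0.089). NPM1 had 243 and 240 CPM compared with 238 and 230 CPM. NPM1 has 49 annotated pseudogene copies, so the split of its reads is uncertain, as it is on a smaller scale for DDX18 (5 copies), RRN3, NOP56 and NIP7 (3 each).

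Of the 15 small subunit genes, 12 were lower in value (median -0.13) and 3 had an unadjusted p under 0.05. HEATR1 belongs to the subcomplex that loads on the nascent precursor. The gene has exon sequence within the span of an annotated same-strand gene. It had 103 and 106 CPM in siNTC and 78.2 and 88.0 CPM in siEHMT1, with no overlap (log2 fold change -0.33, SE 0.098, edgeR adjusted p = 0.222). NAT10, the acetyltransferase of small subunit rRNA, had 100.5 and 88.9 CPM in siNTC and 69.6 and 81.1 CPM in siEHMT1 (-0.33, SE 0.10, edgeR adjusted p = 0.274). EMG1, an rRNA methyltransferase, had the highest value of the group, 0.19 (SE 0.12), and its samples overlapped. The gene has exon sequence within the span of a same-strand neighbour.

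Values of the snoRNP and large subunit groups lay closer to 0, with medians of -0.048 and -0.021. Of the snoRNP genes 5 of 9 were lower, among them GAR1 at -0.37 with an SE of 0.41 and a level near 2 CPM, and NOLC1, a chaperone of snoRNP assembly, at -0.22 (SE 0.086). FBL and DKC1 had log2 fold changes of 0.042 (SE 0.10) and -0.071 (SE 0.10). NOP10 had 133 and 119 CPM in siNTC and 146 and 134 CPM in siEHMT1 (0.15, SE 0.094). Of the large subunit genes 9 of 15 were lower. EBNA1BP2, a factor of pre-large-subunit processing, had 54.4 and 46.4 CPM in siNTC and 59.7 and 58.0 CPM in siEHMT1, the highest change of all members (0.22, SE 0.11, edgeR adjusted p = 0.547). NOC3L and BOP1 had 0.15 (SE 0.19) and 0.13 (SE 0.23), and without siNTC replicate 2 the value of BOP1 was -0.12.

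Values also varied with transcript length. In all genes, the median log2 fold change of siEHMT1 over siNTC was 0.084 for canonical transcripts up to 1000 bp, 0.036 above that and up to 2000 bp, 0.0066 up to 4000 bp, -0.045 up to 8000 bp and -0.069 over 8000 bp. The member medians in the same classes were 0.11 (n = 3), -0.048 (n = 13), -0.077 (n = 22), -0.17 (n = 9) and -0.22 (n = 5). Between the samples numbered 1, the class over 8000 bp had a median of -0.40 for the members and -0.14 for all genes. Between those numbered 2, the medians of this class were -0.028 for the members and 0.0022 for all genes. With the class median of all genes subtracted from each value, the member median was -0.088. The part of length in the member values was not tested.

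With Dox, more members had values above 0 than below. In the effect shared by the 4 lines, 36 of the 52 members were above 0 and 16 below (30.8%, compared with 48.8% of all 14105 genes tested). The median was 0.067 for the members and 0.0050 for all genes. No member passed an adjusted p of 0.05 in edgeR, where 0.603% of all genes were called higher and 1.51% lower. DESeq2 called 0 members, and limma-voom called 1, GNL3. At an unadjusted p under 0.05, 11 members were higher (21.2%, all genes 6.86%) and 2 lower (3.85%, all genes 7.55%). DESeq2 gave 2 and limma-voom 12 such members in both directions. Dox was above Veh in all 4 lines for 8 members (15.4%, all genes 10.7%), namely POLR1A, TCOF1, UTP20, NAT10, NOP16, BOP1, RRP1B and NIP7. It was below Veh in all 4 lines for NHP2, GNL3, PPAN and NPM1 (7.69%, all genes 10.1%).

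**Figure D2:**
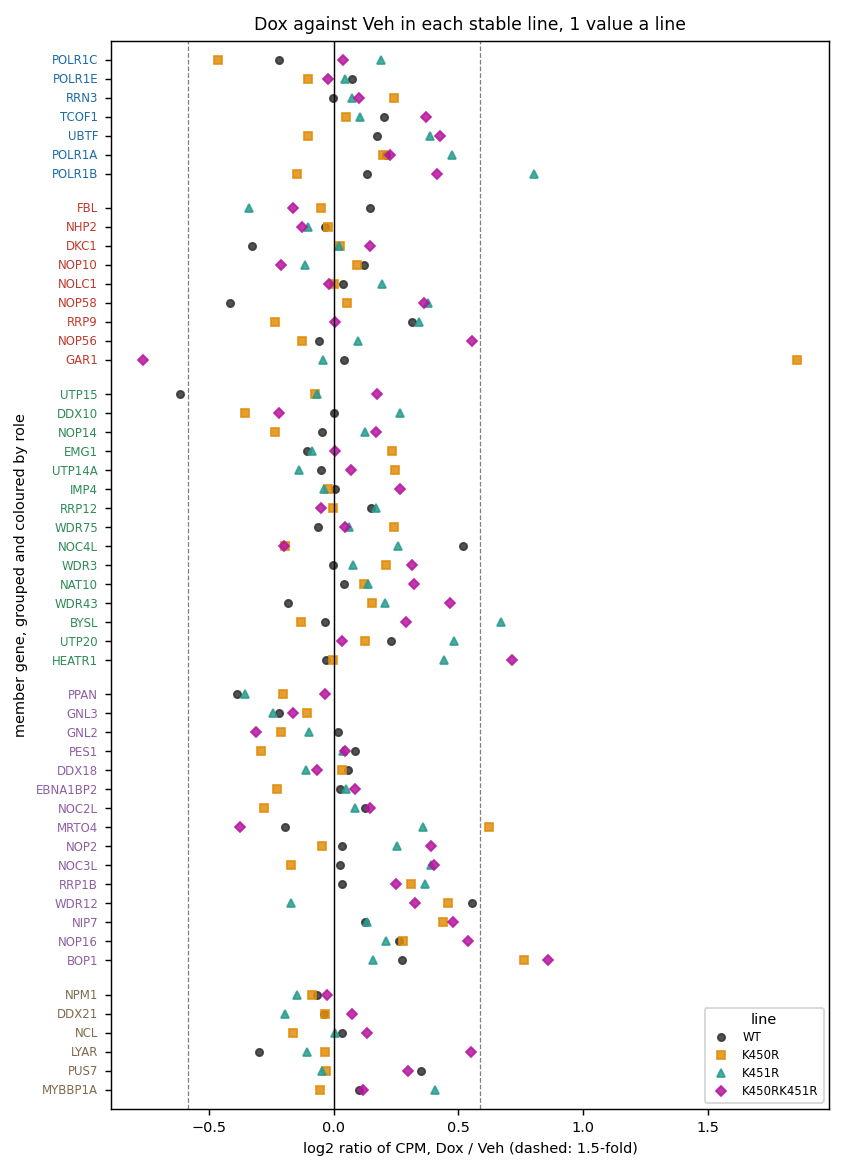
The log2 ratio of Dox over Veh is plotted for each member in the 4 stable lines, 1 value per line and no error bar, since the columns of a condition were added up. Dashed lines mark 1.5-fold; most Pol I genes lie right of 0 in K451R and K450RK451R, and GAR1 in K450R, at 1.85, rests on 1 count with Veh.

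Among the Pol I genes the median of the shared effect was 0.19, and 4 of 7 had an unadjusted p under 0.05. POLR1A went from 26.5 to 30.6 CPM in EHMT1-WT, from 26.5 to 30.4 in K450R, from 31.5 to 43.9 in K451R and from 31.1 to 36.5 in K450RK451R. It was higher with Dox in each line, with a log2 fold change of 0.28 (SE 0.090, edgeR adjusted p = 0.102). POLR1B went from 12.4 to 13.6 CPM in EHMT1-WT, from 14.6 to 13.1 in K450R, from 15.6 to 27.3 in K451R and from 15.3 to 20.4 in K450RK451R. It was thus lower in K450R only (0.35, SE 0.14, edgeR adjusted p = 0.200). UBTF and TCOF1, treacle, which works with UBTF, had 0.23 (SE 0.089) and 0.19 (SE 0.089), and RRN3 had 0.10 (SE 0.082). POLR1C, a subunit shared with RNA polymerase III, had -0.095 (SE 0.15), and 0.017 without K450R.

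In the small subunit group 13 of 15 genes were higher in value (median 0.067). HEATR1 had 24.9 CPM with Veh and 24.3 with Dox in EHMT1-WT and 26.3 and 26.2 in K450R, but 24.8 and 33.8 in K451R and 24.9 and 41.1 in K450RK451R. Its shared log2 fold change was 0.31 (SE 0.11, edgeR adjusted p = 0.158), with 0.41 (adjusted p = 0.0412) without EHMT1-WT and 0.14 (adjusted p = 0.700) without K450RK451R. The large subunit group held both extremes (median 0.068). BOP1, a partner of PES1 and WDR12 in one complex, went from 3.04 to 3.72, 3.82 to 6.61, 3.77 to 4.23 and 2.13 to 4.03 CPM in EHMT1-WT, K450R, K451R and K450RK451R (0.54, SE 0.24, edgeR adjusted p = 0.298). NOP16 and NIP7 had 0.34 (SE 0.14) and 0.31 (SE 0.15). GNL3, the GTPase nucleostemin, went from 368 to 316, 338 to 314, 366 to 310 and 300 to 268 CPM in the same order of lines. It was lower with Dox in each line (-0.18, SE 0.053, edgeR adjusted p = 0.0666, limma-voom adjusted p = 0.0408). GNL3 has exon sequence within the spans of GLT8D1 and PBRM1 on the opposite strand. Its relative GNL2 had -0.15 (SE 0.067), and PPAN, whose exons overlap a read-through gene on the same strand, had -0.25 (SE 0.21).

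The snoRNP and other nucleolar groups had medians of 0.022 and 0.029. FBL went from 112 to 124 CPM in EHMT1-WT, from 116 to 112 in K450R, from 130 to 103 in K451R and from 121 to 108 in K450RK451R (-0.10, SE 0.068). It was thus higher in EHMT1-WT only. DKC1, NCL and NPM1 had -0.026 (SE 0.092), 0.0050 (SE 0.060) and -0.082 (SE 0.054).

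By line, the member median of Dox over Veh was 0.029 in EHMT1-WT, -0.028 in K450R, 0.092 in K451R and 0.13 in K450RK451R. Scaled by total counts, it was 0.065, -0.0031, 0.22 and 0.26, where the all-gene medians were 0.041, 0.033, 0.127 and 0.137. With 1 sample per condition there is no test within a line, and intervals cover counting error only. In EHMT1-WT no member was higher by 1.5-fold (all genes, 4.24%), and 1 was lower (all genes, 5.92%), UTP15 at -0.62 (95% counting interval -1.23 to -0.069). With total-count scaling 1 member was higher and 0 lower in this line. In K450R 3 members were higher (all genes, 6.36%) and 0 lower (5.38%). They were GAR1, BOP1 at 0.76 (0.15 to 1.46) and MRTO4, a factor of large subunit assembly, at 0.62 (0.23 to 1.04). GAR1 had 1 count with Veh and 9 with Dox, a log2 ratio of 1.85 with an interval of 0.11 to 8.41.

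In K451R 2 members were higher (all genes, 5.43%) and 0 lower (5.42%), with 4 higher under total-count scaling. POLR1B had a log2 ratio of 0.80 (0.51 to 1.11), and BYSL, a small subunit factor, 0.67 (0.15 to 1.26). All 7 Pol I genes were above 0 in this line, with a median of 0.19. In K450RK451R 2 members were higher (all genes, 7.64%) and 1 lower (5.13%), with 7 higher under total-count scaling. BOP1 had a log2 ratio of 0.86 (0.16 to 1.72) and HEATR1 one of 0.72 (0.50 to 0.94), whereas GAR1 had -0.76 (-2.33 to 0.42). NOP56 followed with 0.56 (0.36 to 0.76). Here 6 of 7 Pol I genes were above 0, with a median of 0.23. The counting interval lay above 0 for 5 members in EHMT1-WT (9.62%, all genes 11.5%), 9 in K450R (17.3%; 12.8%), 13 in K451R (25%; 12.6%) and 20 in K450RK451R (38.5%; 16.8%). It lay below 0 for 4 (7.69%; 11.3%), 8 (15.4%; 13.1%), 4 (7.69%; 14.6%) and 5 members (9.62%; 17.8%). Such an interval is narrower for genes with more counts, and members and all genes were not matched for counts. The log2 ratio itself was below 0 for 21 members in EHMT1-WT (40.4%, all genes 48.8%), 30 in K450R (57.7%; 48.7%), 17 in K451R (32.7%; 49.9%) and 15 in K450RK451R (28.8%; 49.7%).

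The share of counts on MT-RNR2, the mitochondrial large rRNA, moved with Dox as well. It went from 11.6% to 8.77% in EHMT1-WT, from 10.7% to 12.5% in K450R, from 13.1% to 9.51% in K451R and from 10.9% to 7.26% in K450RK451R. K450R, the line with a member median below 0, was thus the only one in which this share rose. Its part in the member values was not tested.

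Whether the 3 mutant lines answered Dox differently from EHMT1-WT was tested as an interaction. No member passed an adjusted p of 0.05 in edgeR, where 0.00709% of all genes were called higher in the mutants and 0.156% lower, nor in DESeq2 or limma-voom. At an unadjusted p under 0.05, 2 members were higher (all genes, 3.62%) and 1 lower (all genes, 3.47%), compared with 0 in DESeq2 and 3 in limma-voom. They were NOP58 (difference of log2 fold changes 0.70, SE 0.28, edgeR adjusted p = 0.565), WDR43, a small subunit factor (0.47, SE 0.20, adjusted p = 0.635), and FBL (-0.33, SE 0.14, adjusted p = 0.612). NOP58 went from 17.6 to 13.2 CPM with Dox in EHMT1-WT, from 15.9 to 16.5 in K450R, from 17.5 to 22.8 in K451R and from 15.9 to 20.5 in K450RK451R. EHMT1-WT is a single pair of conditions in this test and is assumed to vary like the others. The median difference over members was 0.071, and 21 lay below 0 (40.4%, all genes 50.3%).

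The member medians lay furthest from 0 between the siNTC samples and the uninduced stable lines. Both are LNCaP with comparable EHMT1 (82.1 and 77.4 CPM in siNTC, 71.8 to 88.9 CPM in the 4 lines when the 6 libraries were scaled together). They come from separate experiments, and only the siNTC cells were transfected with siRNA. The stable lines were puromycin-selected and kept in tetracycline-free serum. The experiment, the cells and these treatments cannot be told apart. The siNTC samples and the Veh conditions also serve as the controls above. In a fit of 2 siNTC samples against 4 Veh conditions, added after the data were seen, 42 members were lower in the lines (80.8%) and 2 higher (3.85%). Of all 14681 genes tested, 30.1% were lower and 29.6% higher. The median log2 fold change was -1.16 for the members and 0.0065 for all genes. The 4 lines lay below both siNTC samples for 44 members (84.6%, all genes 34.6%), and above them for 2 (3.85%, all genes 34%). By 2-fold or more, 29 members were lower (55.8%, all genes 12%) and 0 higher (all genes, 11.9%).

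**Figure D3:**
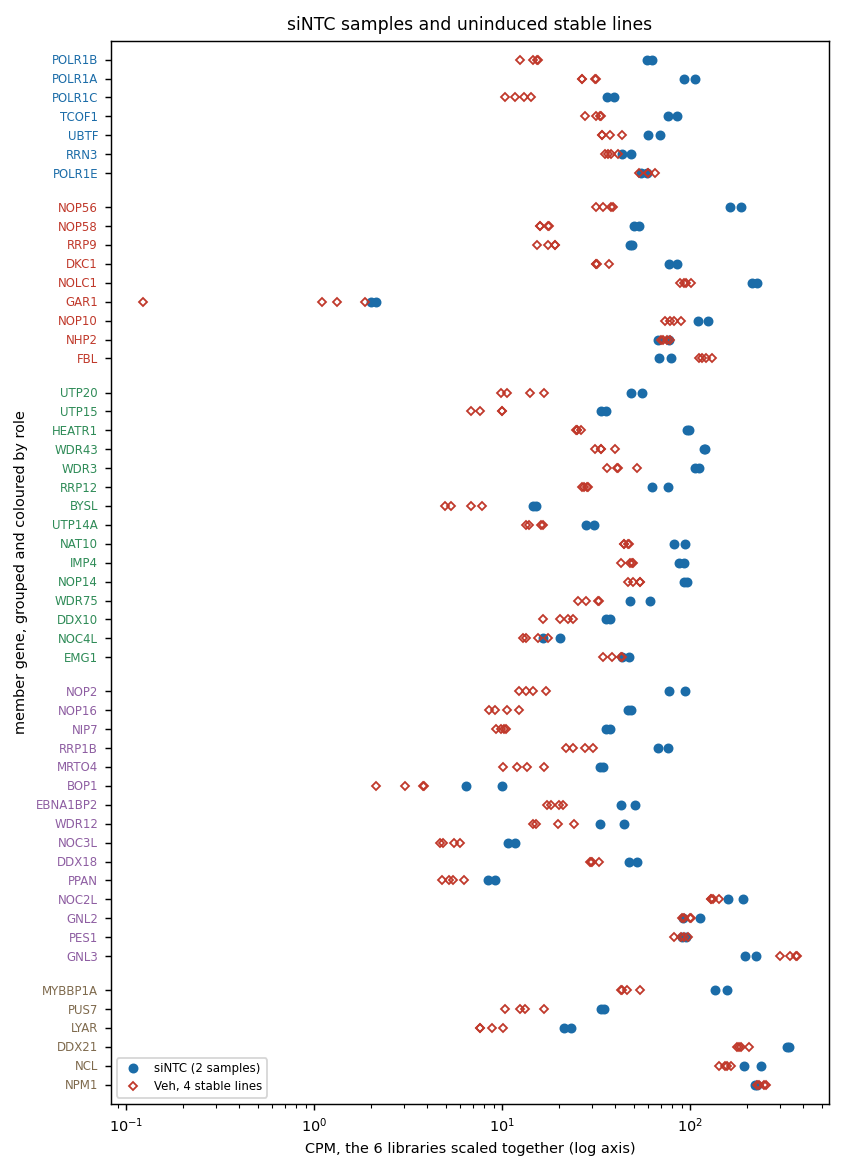
The level of each member in CPM (log axis, 6 libraries scaled together) is plotted for the 2 siNTC samples (filled circles) and the Veh condition of the 4 stable lines (open diamonds), by role. The diamonds lie left of both circles for 44 members, and right of both for FBL and GNL3.

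Members of every role were lower. Called lower were 6 of 7 Pol I genes, 6 of 9 snoRNP genes, 13 of 15 small subunit genes, 12 of 15 large subunit genes and 5 of 6 other nucleolar genes. NOP2, an rRNA methyltransferase of the large subunit whose exons overlap another gene on the same strand, had 93.5 and 76.9 CPM in siNTC and 13.3, 12.3, 17.0 and 14.5 CPM in EHMT1-WT, K450R, K451R and K450RK451R. This was the largest drop of all members (log2 fold change -2.58, SE 0.12, edgeR adjusted p = 1.32e-13). NOP56 had 186 and 164 CPM in siNTC and 34.5, 38.1, 39.0 and 31.7 CPM in the lines (-2.29, SE 0.094, edgeR adjusted p = 1.54e-14). Its partner NOP58 had -1.63 (SE 0.11), yet the methyltransferase of the same particle, FBL, had 78.8 and 68.1 CPM in siNTC and 112, 116, 130 and 121 CPM in the lines. FBL was thus higher in each line (0.70, SE 0.093, edgeR adjusted p = 1.30e-06).

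POLR1B had 62.6 and 58.6 CPM in siNTC and 12.4, 14.6, 15.6 and 15.3 CPM in the lines (-2.07, SE 0.12, edgeR adjusted p = 2.95e-12). POLR1A and POLR1C had -1.78 (SE 0.10) and -1.62 (SE 0.14), and UBTF -0.80 (SE 0.11). POLR1E was close to even, at 59.1 and 54.5 CPM compared with 53.6, 65.3, 59.9 and 59.7 CPM (0.065, SE 0.10, edgeR adjusted p = 0.595). HEATR1 had 96.5 and 98.5 CPM in siNTC and 24.9, 26.3, 24.8 and 25.0 CPM in the lines (-1.95, SE 0.092, edgeR adjusted p = 1.48e-13). GNL3 had 223 and 196 CPM in siNTC and 369, 339, 366 and 300.2 CPM in the lines, the other member that was higher (0.71, SE 0.091, edgeR adjusted p = 7.77e-07). NCL had -0.48 (SE 0.089). Of the 3 proteins of one large subunit complex, BOP1 had -1.43 (SE 0.27) and WDR12 -1.09 (SE 0.17), whereas PES1 had -0.038 (SE 0.089). The 8 members not called were NOC4L, EMG1, GAR1, NPM1, GNL2, POLR1E, PES1 and NHP2.

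MYC had 375 and 346 CPM in siNTC and 106, 114, 135 and 142 CPM in EHMT1-WT, K450R, K451R and K450RK451R (log2 fold change -1.54, SE 0.095, edgeR adjusted p = 1.15e-11). MAX had 48.6 and 48.9 CPM compared with 26.9, 25.4, 24.7 and 21.3 CPM (-0.99, SE 0.11, edgeR adjusted p = 1.72e-07). MYCN had 0 counts in all 4 siRNA samples and all 8 summed conditions. The 22 members with CACGTG in a RefSeq window had a median of -1.03, and the 22 with a window but without it had -0.98. All tested genes with a window had -0.10 with it (n = 1195) and -0.011 without (n = 8106) in this comparison. After siEHMT1 the same member sets had -0.048 and -0.073, and all tested genes with a window -0.029 and -0.0052. With Dox the member sets had 0.054 and 0.083, and all tested genes with a window 0.018 and 0.0067. The part of MYC in these values was not tested. MT-RNR2 took 20.7% to 25.5% of the counts in the siRNA samples and 7.26% to 13.1% in the lines, and transcripts up to 1000 bp had an all-gene median of 0.31 in the lines compared with siNTC. In each length class the member median was lower than that of all genes, from -0.54 (up to 1000 bp, n = 3) to -1.77 (over 8000 bp, n = 5).

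**Figure D4:**
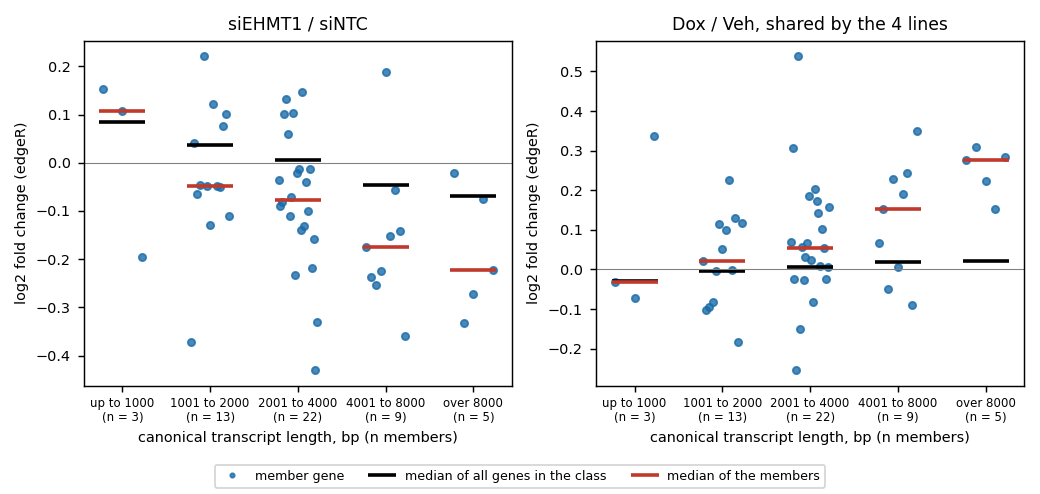
Log2 fold changes of the 52 members are plotted by canonical transcript length class for siEHMT1 over siNTC and for Dox over Veh shared by the 4 lines, with short bars for the medians of the members and of all genes tested in the class. In siEHMT1 the member medians run from 0.11 to -0.22 and those of all genes from 0.084 to -0.069; with Dox they run from -0.030 to 0.28 and from -0.030 to 0.022.

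With Dox, the class medians of all genes were -0.030, -0.0047, 0.0056, 0.018 and 0.022 from the shortest to the longest class, and those of the members -0.030, 0.022, 0.054, 0.15 and 0.28. The 5 members over 8000 bp were POLR1A, UTP20, HEATR1, WDR3 and WDR12, each above 0 in the shared effect and below 0 after siEHMT1. A class of 3 to 13 members is thin.

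A list of 102 other ribosome biogenesis factors was examined in the same way. After siEHMT1, 65 of the 101 tested were lower in value (64.4%, all genes 50.4%), with a median of -0.073. None was called in edgeR, and at an unadjusted p under 0.05, 7 were lower (all genes 5.09%) and 0 higher (all genes 4.46%). RRS1, a large subunit factor, had 32.1 and 25.7 CPM in siNTC and 22.8 and 14.9 CPM in siEHMT1, with no overlap (log2 fold change -0.63, SE 0.18, edgeR adjusted p = 0.200). The next lowest values were -0.38 for MPHOSPH10, -0.34 for WDR36, -0.33 for NOL10 and -0.31 for ZNHIT6. The highest were 0.22 for TAF1C, 0.21 for ZNRD1, 0.21 for TGS1, 0.19 for GLTSCR2 and 0.17 for NGDN.

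With Dox, 62 of the 102 were higher in value and 40 lower (39.2%, all genes 48.8%), with a median of 0.067. None was called in edgeR, and at an unadjusted p under 0.05, 8 were higher (all genes 6.86%) and 5 lower (all genes 7.55%), counts that lie near those shares. DDX47, an RNA helicase, went from 2.87 to 0.451 CPM in EHMT1-WT, 3.21 to 1.17 in K450R, 1.34 to 1.22 in K451R and 1.83 to 0.620 in K450RK451R. It was lower with Dox in each line (-1.37, SE 0.39, edgeR adjusted p = 0.0615), at 4 to 34 counts per condition. TAF1D of the Pol I selectivity factor had -0.28 (SE 0.079, edgeR adjusted p = 0.0620), and NOM1, TAF1C and NIFK had -0.27, -0.25 and -0.24. The highest values were 0.50 for URB2, 0.48 for TGS1, the cap hypermethylase of snoRNAs (SE 0.15, edgeR adjusted p = 0.0883), 0.45 for RRS1, 0.40 for CD3EAP and 0.37 for PNO1. In the uninduced lines, 73 of 102 were called lower than in siNTC (all genes 30.1%) and 9 higher (all genes 29.6%), with a median of -0.84.

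Several members carry snoRNA genes in their introns on the same strand. The reference annotation lists 23 such entries in NOP56, NOP58, DKC1, WDR43, GNL3, PPAN, NCL and POLR1C. Their counts were near 0 in both tables. The most counted, SNORD19 within GNL3, had 39 counts over all siRNA samples and 107 over all stable-line columns, so no fold was computed for them.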

How the data were processed

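RNA was purified with RNeasy columns from LNCaP cells grown in RPMI medium with serum, which was tetracycline-free for the stable lines. Total RNA libraries (TruSeq stranded) were read as 51 nt single ends on a NextSeq 2000. Per the submitters' processing notes, FastQC 0.11.9, STAR 2.7.2 and featureCounts 1.6.4 were used with hg19. The values deposited by the authors are whole-number counts per gene, not normalised, 1 table per experiment. Whether strand was used in counting is not given in the sources used here, so overlapping genes are uncertain. This includes members with exon sequence within the span of an opposite-strand gene, among them GNL3, WDR12, POLR1C and HEATR1.

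The 52 members and all lists were chosen with earlier results of these data known. Genes passing filterByExpr were TMM-scaled and tested across the whole table with edgeR 4.0.16 (quasi-likelihood, R 4.3.3), with Benjamini-Hochberg adjustment over all genes tested. The tables were normalised separately, except that the siNTC samples and uninduced lines were scaled together for the comparison between them. CPM are TMM-scaled, and fold changes are log2, within lines with a prior count of 2. Standard errors (SE) were taken as the absolute log2 fold change over the square root of F. The shared Dox effect used the 4 lines as blocks, and the mutant comparison was an interaction of mutant and Dox. The sources used here do not say that numbered samples came from separate cultures, so p-values measure only the spread between these samples. In the stable lines, columns of a condition were added up (see the chi-square values in the text, genes with at least 20 counts), each value within a line is 1 ratio with an exact binomial 95% interval, and a change counted from 1.5-fold.

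Named genes were the members with an adjusted p under 0.05, the 5 highest and 5 lowest values of siEHMT1 and of the shared Dox effect, the 3 highest and 3 lowest in each line, and POLR1A, UBTF, RRN3, NCL, NPM1, FBL and DKC1. Outside the members they were EHMT1, MYC and the 5 highest and 5 lowest other factors. Other genes named were chosen after their values were seen. Transcript lengths were of GRCh37 canonical transcripts (GENCODE) and promoters of RefSeq GRCh38.p14, and no coordinates were moved between builds. Alternatives were DESeq2 1.42.0, limma-voom (limma 3.58.1), other scalings, filters and prior counts, and leaving out samples or lines. The fits were tested on simulated data, where all changed genes were recovered at 2-fold and more. This was 100% in siEHMT1 against siNTC (14270 genes) and 100% in the shared Dox effect (13968 genes), with 9 unchanged genes called in each. The recovery of folds under 2 was not tested, and all member values in these comparisons lay under 2-fold. Whether the recovery holds for members with few counts, such as GAR1 and BOP1, was not tested either. In the siRNA samples, deviations from group means of same-numbered samples had a Pearson correlation of -0.0023 across 14532 genes.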

Additional observations from a re-analysis of the deposited data

Results flagged for a closer look

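The Dox over Veh ratios of the 33 named members were examined for a line standing apart from the other 3 (gap to the nearest line over the whole range, above Dixon's 95% critical value for 4 values), and 2 stood out. PES1 had a log2 ratio of -0.2895 in K450R, whereas the other lines had 0.038 to 0.088 (gap ratio 0.869). POLR1A had 0.4759 in K451R, whereas the other lines had 0.20 to 0.23 (gap ratio 0.889). PES1 is named for its low value in K450R and POLR1A for its role. Of the 33, 20 are named for an extreme value in a line, so the rate of about 1 in 20 at which chance picks out such groups does not hold for them, and the 2 values are descriptions.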

How the results depend on the processing

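Between siEHMT1 and siNTC, same-numbered samples did not deviate together across all genes, and the main fit had no replicate block. A correlation over all genes cannot exclude pairing, and the labels do not state it. With the replicate block, 1 member was lower (NCL, adjusted p = 0.00235) and 118 genes were called, compared with 19. The member median was -0.050 with upper-quartile scaling. Leaving out 1 sample gave 0 to 1 members lower (NCL without siNTC replicate 2 or siEHMT1 replicate 1, POLR1A without siEHMT1 replicate 2), 5 to 11 at an unadjusted p under 0.05, medians of -0.103 to -0.0438, 38 to 110 genes called and BOP1 values of -0.118 to 0.507. DESeq2 and the unfiltered table each called 12 genes. In the stable lines Veh and Dox were paired by line, and the column numbers gave no block of their own, since the columns were added up.

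In the shared Dox effect, limma-voom called 1 member lower (GNL3). Members at an unadjusted p under 0.05 numbered 2 with DESeq2 (140 genes called, compared with 298) and 8 without the line block (4 genes called). Leaving out 1 line gave 0 to 1 members higher (HEATR1 without EHMT1-WT), 3 to 15 at an unadjusted p, POLR1C values of -0.197 to 0.0172 and 114 to 501 genes called. For mutants against EHMT1-WT, DESeq2 gave 0 members at an unadjusted p, and all-gene calls were 23, 43 with limma-voom, 15 unfiltered and 33 to 101 leaving out a line. Uninduced lines against siNTC had medians of -1.274 (without siNTC replicate 2) to -1.108 and 38 to 42 members lower.

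Within lines, total-count scaling gave a median of 0.065 with 1 higher and 0 lower in EHMT1-WT, -0.0031 in K450R, 0.221 with 4 higher in K451R, and 0.262 with 7 higher in K450RK451R, where it moved the all-gene median by 0.127 (K451R) and 0.137 (K450RK451R). Upper-quartile scaling gave -0.0083 in K450R and 0.141 in K450RK451R. The first column alone gave 2 higher in EHMT1-WT, and 0.154 with 0 lower in K450RK451R. The other column alone gave -0.0070 with 2 lower in EHMT1-WT, -0.066 with 0 higher and 1 lower in K450R, and 0.140 with 5 higher and 0 lower in K450RK451R. The causes were not tested. Depth limits the low genes most, GAR1 and BOP1 above all.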
